A study of Mus musculus with 84 samples.

Results

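Carbonic anhydrases are a gene family named in the mouse by the symbol Car and a number. Every clone whose only symbol is Car followed by a number was taken from both types of spotted array used in the study. On the larger arrays (15k arrays) this gave 9 clones of 8 genes among 15360 clones, of which 11860 carried a single symbol. The genes were Car1, Car2, Car3 (with 2 clones), Car4, Car6, Car8, Car12 and Car13. The smaller arrays (8.7k arrays) held 6 of these clones among 8832, with no clone for Car3 or Car13. The family was chosen on the 15k log2 ratios of Car3, Car4, Car6 and Car12, which were known to differ between groups. On those arrays, therefore, the values of these 4 genes are a description without a test, and Car1, Car2, Car8 and Car13 were tested.

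Carbonic anhydrases are zinc enzymes that convert carbon dioxide and water to bicarbonate and a proton, and back. The members differ mainly in where they work. Car1, Car2, Car3 and Car13 are enzymes of the cytosol, Car4 is anchored to the outer face of the plasma membrane, Car12 spans that membrane with its active site outside the cell, and Car6 is secreted into saliva and milk. Car8 is a related protein of the cytosol that lacks the catalytic activity. Car3 is best known from fat cells and slow skeletal muscle, Car4 from the capillary endothelium of the lung, Car1 and Car2 from red cells, and Car12 from epithelia and tumors, where low oxygen can raise it.

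The transgenic mice carried an oncogene under the mouse mammary tumor virus (MMTV) promoter. RNA of mammary glands, mammary tumors, fat and lung metastases, some of it from nontransgenic mice, was labeled with Cy5. In the published study it was hybridized against a single preparation of Cy3-labeled reference RNA. This reference was made from several mouse organs, lung, liver, kidney and lactating mammary gland among them. Each value is the log2 ratio of sample to reference, so it can be compared between samples for the same clone but gives no order between genes. The study followed MMTV-Wnt-1 transgenic mice, of mixed FVB, SJL and C57BL/6 background, through hyperplasia and tumors. The 15k arrays held virgin glands of nontransgenic FVB mice (n = 5, aged 9 weeks), hyperplastic glands of MMTV-Wnt-1 transgenic mice (n = 7, aged 9 weeks) and Wnt-1-induced tumors (n = 23, aged 9 to 56 weeks). They also held Neu-induced tumors of FVB mice with an MMTV-driven rat cDNA of wild-type Neu (n = 12, aged 32 to 60 weeks), and intestinal fat of virgin FVB mice (n = 3, aged 12 weeks). Lung metastases came from MMTV-Wnt-1 (n = 10) and MMTV-Neu (n = 3) mice and from nontransgenic mice given Neu tumor cells by tail vein (n = 2), at ages the sources do not give. The published study does not list the metastases among its samples, so its statement of a single reference preparation does not cover their arrays. A difference in reference or handling cannot be told apart from that between metastasis and tumor. The 8.7k arrays compared here held Wnt-1-induced tumors (n = 10, within the same 9 to 56 weeks) and Wnt-1-induced tumors of p53-/- mice (n = 6, aged 9 to 14 weeks). The oncogene, the strain background and the age moved together between the tumor types and cannot be told apart. Between virgin glands and the glands or tumors of MMTV-Wnt-1 mice, the transgene and the strain background likewise moved together. The tumors of both types also differed from the virgin glands in age. Between p53-/- and other Wnt-1-induced tumors the ranges of age differed, so p53 status and age cannot be told apart.

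Array quality differed. The SD of the log2 ratios of an array was 0.936 at the median of the 65 15k arrays and ran from 0.67 to 2.59. It exceeded 1.3 on 6 arrays, namely Wnt-1-induced tumors 42 and 49, fat 44 and Wnt-1 metastases 19, 50 and 52 (numbers as in the sample titles), and on none of the 8.7k arrays. Several extreme values below stand on these arrays, and some of the results that rest on them are also given without them. The labels do not say that each array came from a separate animal, so the p-values measure the spread between these samples. The adipocyte markers followed the tissue labels. Adipoq, the fat cell hormone adiponectin, averaged 5.90 in fat, 4.66 in virgin glands, 3.18 in hyperplastic glands, -0.64 in Wnt-1-induced tumors and -1.96 in Neu-induced tumors. The lung markers Sftpc, a surfactant protein, and Scgb1a1, a club cell protein, averaged 1.10 and 0.58 in Wnt-1 metastases against -5.22 and -6.83 in Wnt-1-induced tumors.

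Promoter sequence from RefSeq was at hand for 3 of the 8 genes (Car4, Car6 and Car12; build GRCm38.p6). The stretches before the start sites of Car6 and Car12 are shown because these genes had the widest gaps between the oncogenes. Each line gives the 250 bases that end just before the transcription start, 5′ to 3′ on the gene's strand. The Car6 stretch is chr4:150201136-150201385 on the minus strand, and that of Car12 is chr9:66713436-66713685 on the plus strand. Capitals mark the matches to 7 short motifs searched on both strands. These were the TATA box as TATAAA, the CCAAT box, the GC box as GGGCGG, the Tcf/Lef core as CTTTGA, the core of hypoxia response elements as ACGTG, the Stat element as TTCNNNGAA and the AP-1 element as TGANTCA.
Car6: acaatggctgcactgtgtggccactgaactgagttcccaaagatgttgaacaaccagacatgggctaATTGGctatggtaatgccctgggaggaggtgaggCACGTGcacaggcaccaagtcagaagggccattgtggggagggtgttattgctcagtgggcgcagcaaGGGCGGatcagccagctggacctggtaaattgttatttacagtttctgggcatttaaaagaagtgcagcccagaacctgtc
Car12: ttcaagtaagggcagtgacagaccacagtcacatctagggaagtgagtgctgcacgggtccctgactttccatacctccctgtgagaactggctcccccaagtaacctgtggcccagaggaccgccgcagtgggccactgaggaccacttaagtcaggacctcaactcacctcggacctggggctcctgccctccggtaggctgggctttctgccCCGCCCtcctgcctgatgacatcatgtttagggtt
The Car6 stretch held CCAAT on the opposite strand, GGGCGG, and ACGTG on both strands, where the overlapping matches form CACGTG. The Car12 stretch held GGGCGG on the opposite strand. The Car4 stretch (chr11:84957504-84957753, plus strand) held none of the 7. Among 32851 promoters of the same length CCAAT was present in 33.8%, GGGCGG in 32.7% and ACGTG in 16.6%, and the shares of the other motifs ran from 6.75% to 13.8%. GC made up 52.4% of the Car6 stretch and 59.2% of that of Car12, where the median promoter had 52.4%. These matches are descriptions of letters, not evidence of binding.

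Car6, the secreted enzyme, was high in Neu-induced tumors and near the reference in the other mammary tissues. In Neu-induced tumors its log2 ratio was 3.85 at the lowest, 5.19 at the median and 7.51 at the highest of 12 arrays. In Wnt-1-induced tumors it was -2.20, -0.44 and 0.64 over 23 arrays. All 12 Neu-induced tumors lay above all 23 Wnt-1-induced tumors, a geometric mean 57.5-fold higher. Without the widely spread arrays the log2 difference of Wnt-1-induced minus Neu-induced tumors went from -5.85 to -5.73. For scale, 43.6% of all 15360 clones were called between these tumors by limma at an adjusted p under 0.05. The virgin glands held Car6 at 0.38, -0.33, -0.30, -0.05 and 0.13. The hyperplastic glands spanned -1.66 to 0.72 around a median of -0.25, and the fat samples read -1.14, -0.48 and 0.41. These normal and hyperplastic samples overlapped each other and the Wnt-1-induced tumors, and each lay below every Neu-induced tumor. The Neu metastases kept to the level of their tumors at 4.58, 3.96 and 5.59, and the tail-vein metastases read 6.94 and 4.18. Wnt-1 metastases ran from -7.73 to -0.32 with a median of -0.96, all 10 below all 3 Neu metastases. The lowest of them, metastasis 50, is one of the widely spread arrays. Milk markers were set beside Car6. The 12 measured genes of a secretory epithelium list averaged -1.72 in Neu-induced and -2.03 in Wnt-1-induced tumors, with array means from -2.22 to -1.39 and from -3.33 to -1.12. Of those 12 genes 2 were called higher and 2 lower in Wnt-1-induced tumors, where 22.8% of all genes were called higher and 23% lower. Csn3, the milk protein kappa-casein, averaged 1.62 and -2.57 in Neu-induced and Wnt-1-induced tumors and Wap, whey acidic protein, -4.51 and -4.32. Across the 12 Neu-induced tumors Car6 and the list had a Pearson r of 0.04 and a Spearman rho of 0.21. Without the 2 tumors farthest from the median of Car6 r was 0.80. Across the 23 Wnt-1-induced tumors these values were 0.45, 0.31 and 0.14. The part of secretory cells in the level of Car6 was not tested.

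**Figure D1:**
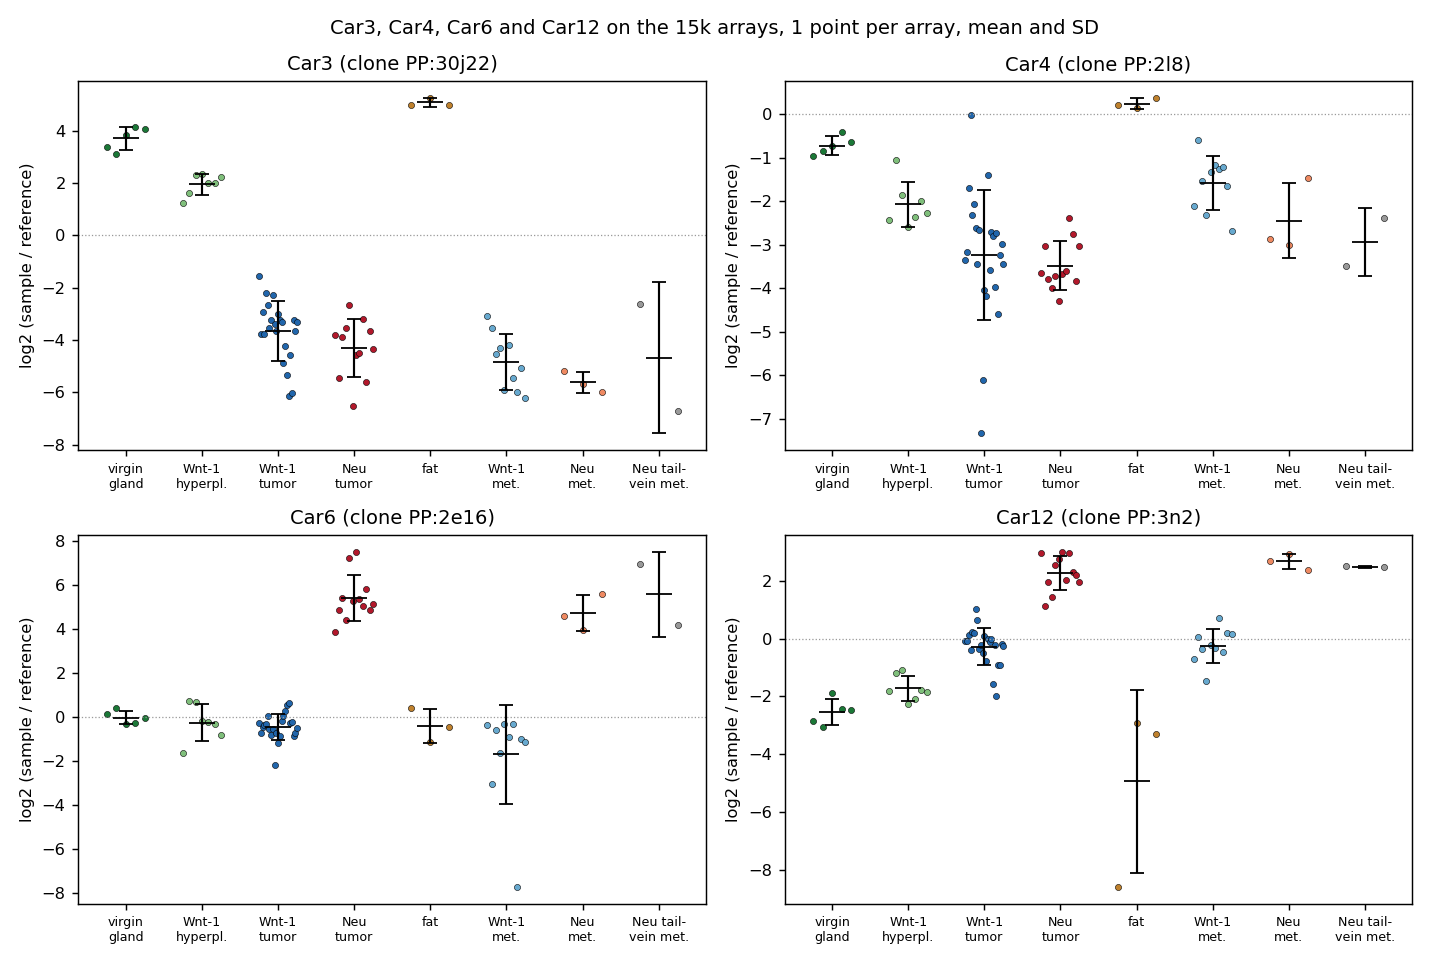
Log2 ratio of sample to reference (vertical axis) of Car3, Car4, Car6 and Car12 on the 15k arrays, 1 point per array, with the mean and SD of each group of samples (horizontal axis; met. stands for lung metastasis, hyperpl. for hyperplasia). Car6 and Car12 sit highest in the Neu groups, Car3 sits above 1 in virgin glands, hyperplastic glands and fat and below -1 in every tumor and metastasis, and a single fat array at -8.59 sets the wide error bar of Car12 in fat.

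Among the mammary glands and primary tumors, Car12, the membrane enzyme that faces outward, was lowest in virgin glands and highest in Neu-induced tumors. It averaged -2.54 ± 0.46 (SD, n = 5) in virgin glands, -1.72 ± 0.43 (n = 7) in hyperplastic glands, -0.27 ± 0.65 (n = 23) in Wnt-1-induced tumors and 2.27 ± 0.60 (n = 12) in Neu-induced tumors. The virgin glands read -3.05, -1.87, -2.45, -2.48 and -2.86, and the hyperplastic glands ran from -2.26 to -1.10 with a median of -1.80. These neighbors overlapped, with 5 of 7 hyperplastic glands above all virgin glands. Wnt-1-induced tumors ran from -1.98 to 1.02 with a median of -0.19, and 21 of 23 lay above all hyperplastic glands. Neu-induced tumors, from 1.14 to 3.01 with a median of 2.25, all lay above all Wnt-1-induced tumors. The geometric mean of Neu-induced tumors was 5.83-fold that of Wnt-1-induced tumors and 28.1-fold that of virgin glands, and Wnt-1-induced tumors had 4.82-fold the virgin level. After quantile normalization the log2 differences from virgin glands were larger, at 5.54 instead of 4.81 for Neu-induced and 3.27 instead of 2.27 for Wnt-1-induced tumors. In the metastases Car12 kept the level of the matching tumors, at -0.24 ± 0.59 (n = 10) for Wnt-1 and at 2.70, 2.92 and 2.39 for the 3 Neu metastases. Fat read -2.93, -3.29 and -8.59. The last value is that of the widest array, without which the log2 difference of fat minus virgin glands shrank from -2.39 to -0.57. After quantile normalization this difference was 0.37. Genes known to answer low oxygen were set beside Car12. The 9 measured members of a hypoxia list averaged 0.96 over the Neu-induced tumors, with arrays from 0.61 to 1.37, and -0.02 over the Wnt-1-induced tumors, with arrays from -0.43 to 0.71. None was called higher and 5 were called lower in Wnt-1-induced tumors, where 22.8% of all genes were called higher and 23% lower. Virgin glands, where Car12 was low, averaged 0.67 for that list. Across the 23 Wnt-1-induced tumors Car12 and the list had a Pearson r of 0.57 and a Spearman rho of 0.69, and r was 0.71 without the 2 tumors farthest from the median of Car12. Across the 12 Neu-induced tumors r was 0.07 and rho 0.20. The 6 measured myoepithelial genes went the other way between the tumor types, with averages of 0.45 for Wnt-1 and -0.98 for Neu. Across the same 23 Wnt-1-induced tumors their r with Car12 was -0.705 and rho -0.63 (r = -0.61 without the 2 farthest), and across the 12 Neu-induced tumors r was 0.05 and rho -0.37. Most other lists also rose with Car12 across the Wnt-1-induced tumors. Skeletal muscle genes had a rho of 0.58 (r = 0.35, and 0.66 without the 2 farthest). For adipocyte, secretory and red cell genes rho was 0.54 each, for lung genes 0.525 and for endothelial genes 0.52 (r from 0.19 to 0.47). Acid and bicarbonate transport genes had a rho of 0.43 and luminal genes of -0.04. These points share the reference and, within an array, its scan, and the part of low oxygen or of cell makeup in the level of Car12 was not tested.

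Car4, the enzyme tethered to the membrane, was highest in fat and lowest in the tumors. Fat read 0.14, 0.38 and 0.22 and virgin glands -0.85, -0.72, -0.42, -0.63 and -0.97, so that the groups did not overlap. Hyperplastic glands ran from -2.60 to -1.04 with a median of -2.26, all 7 below all virgin glands, a geometric mean 2.56-fold lower (log2 difference -1.35, and -1.90 after quantile normalization). Of all clones 21.9% were called between hyperplastic and virgin glands. Wnt-1-induced tumors were scattered, from -7.33 to -0.01 around a median of -3.17, and Neu-induced tumors ran from -4.29 to -2.39 around -3.66. Against virgin glands 22 of 23 Wnt-1-induced and all 12 Neu-induced tumors lay below every gland, with geometric means 5.73-fold and 6.79-fold lower. The exception was Wnt-1-induced tumor 23 at -0.01. The tumor types overlapped, with a log2 difference of 0.24 and SDs of 1.49 and 0.56. Both kinds of metastasis stood above their tumors in the mean. Wnt-1 metastases ran from -2.69 to -0.59 with a median of -1.42, which put 16 of 23 Wnt-1-induced tumors below all 10 of them. The geometric mean was 3.14-fold higher, and the log2 difference fell from 1.65 to 1.23 without the widely spread arrays. Neu metastases read -2.87, -3.0 and -1.46, below which lay 10 of 12 Neu-induced tumors. The 18 measured endothelial genes averaged -0.01 in virgin glands, -0.50 in hyperplastic glands, -0.81 and -1.05 in Wnt-1-induced and Neu-induced tumors, and -0.36 and -0.62 in their metastases, and so moved in the same direction as Car4 at each of these steps. Fat, at 0.24, was highest for both. The adipocyte list followed the same order from fat (2.01) through virgin (1.57) and hyperplastic glands (0.31) to the tumors (-1.41 and -1.32), and the lung epithelium list averaged -2.31 in Wnt-1-induced tumors and 0.52 in their metastases. Within the Wnt-1-induced tumors the r of Car4 was 0.71 with the endothelial, 0.59 with the adipocyte and 0.76 with the lung list. Without the 2 tumors farthest from the median of Car4 these were 0.54, 0.46 and 0.705. One of those left out was tumor 42, a widely spread array, which was lowest for Car4 (-7.33) and for all 3 lists. Within the 12 Neu-induced tumors r was 0.67, 0.315 and 0.49. The part of each cell type in the level of Car4 was not tested. Fewer cells of a type and less RNA per cell cannot be told apart in such bulk samples, here and below.

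Car3, the fat and muscle enzyme, had the widest span of the family. Clone PP:30j22 read 5.26, 5.00 and 4.99 in fat and 3.13, 3.82, 4.14, 4.08 and 3.37 in virgin glands. Hyperplastic glands ran from 1.25 to 2.36 with a median of 2.00. Fat lay above all virgin glands, these above all hyperplastic glands, and these above every tumor. Wnt-1-induced tumors ran from -6.14 to -1.54 around a median of -3.37 and Neu-induced tumors from -6.53 to -2.67 around -4.12, and these 2 groups overlapped. The geometric mean of this clone fell 3.35-fold from virgin to hyperplastic glands and 48.9-fold from hyperplastic glands to Wnt-1-induced tumors, and Neu-induced tumors lay 260-fold under the virgin glands. For the same steps clone PP:31h12 gave 2.36-fold, 72-fold and 275-fold, of which the first, a log2 difference of -1.24, was -0.69 after quantile normalization. The clones differed by a median of 0.348 over the 65 arrays, and by more than 1 log2 unit on 7 of them. The widest gap was on Wnt-1 metastasis 52, at -5.09 for the first clone and -11.70 for the second, a ratio far under 0.01. The adipocyte list, with 26 measured genes, averaged 2.01 in fat, 1.57 in virgin glands, 0.31 in hyperplastic glands, -1.41 in Wnt-1-induced tumors and -1.32 in Neu-induced tumors. Of its genes 22 were called lower and none higher in hyperplastic than in virgin glands, where 14.3% of all genes were called lower and 9.58% higher. In either tumor type 25 were called lower and none higher than in virgin glands. Of all genes 26.5% were called lower and 26% higher there for Wnt-1, and 28.8% lower and 26.8% higher for Neu. The skeletal muscle list, with 12 measured genes, averaged 2.55 in virgin glands, 2.20 in hyperplastic glands, -0.55 in Wnt-1-induced tumors and -0.78 in fat, and so did not follow Car3 in fat. Within the 23 Wnt-1-induced tumors Car3 and the adipocyte list had a Pearson r of 0.73 and a Spearman rho of 0.74 (r = 0.69 without the 2 tumors farthest from the median of Car3), and within the 12 Neu-induced tumors r was 0.69 and rho 0.73. With the muscle list r was 0.60 and rho 0.64 in the former and 0.36 and 0.28 in the latter. In the 10 Wnt-1 metastases r was 0.81 with the adipocyte list and 0.85 with the muscle list.

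**Figure D2:**
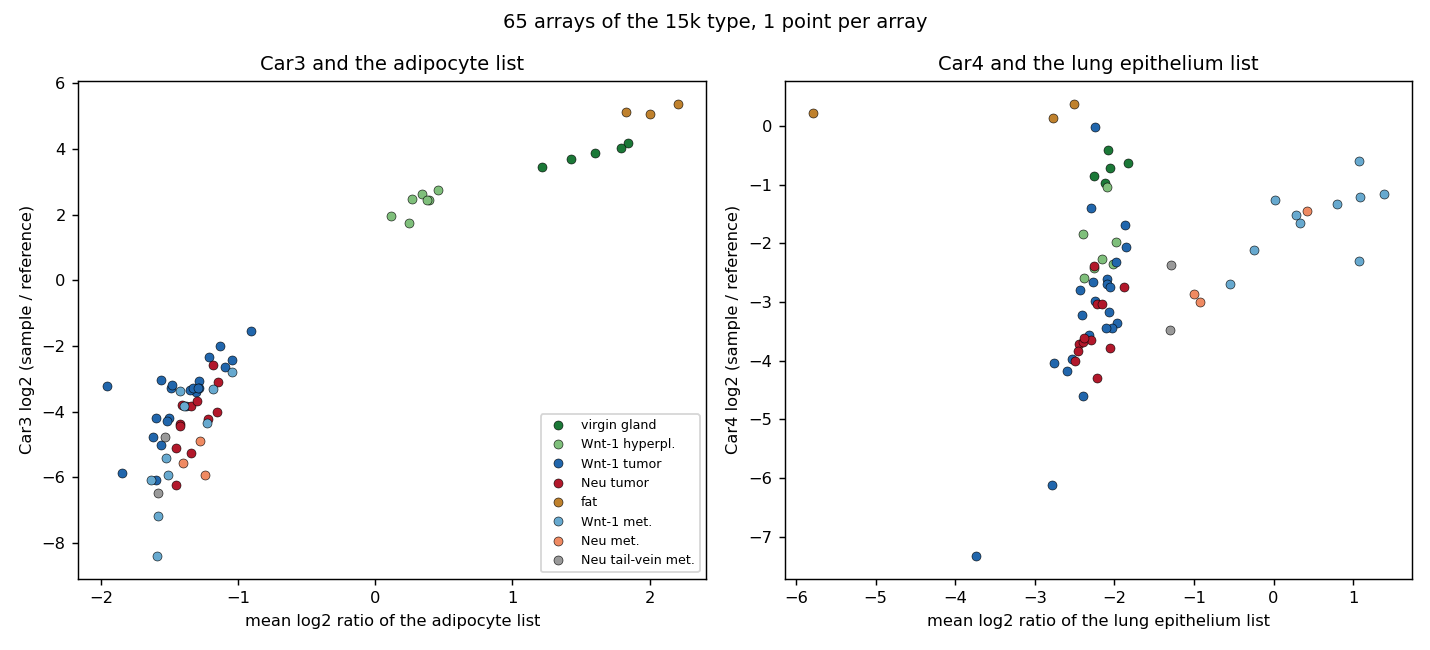
Left, log2 ratio of Car3 (mean of its 2 clones) against the mean log2 ratio of 26 adipocyte genes, and right, log2 ratio of Car4 against the mean log2 ratio of 9 lung epithelium genes, 1 point per 15k array and 1 color per group. Fat, virgin and hyperplastic glands stand apart from all tumors on the left, and on the right the lung metastases lie to the right of the tumors while 1 fat array lies far to the left.

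The genes whose pattern over the 65 arrays was most like each of these 4 were ranked by Pearson r over clones with a single symbol, as a description that the group differences dominate. Closest to Car3 were a Tcf25 clone (r = 0.989), Scd1 (0.98), which makes monounsaturated fatty acids, and an Hnrnph1 clone (0.977). Other clones named Tcf25 and Hnrnph1 went down to r = -0.787 and -0.424, so that these names are uncertain. Closest to Car4 were Ablim3 (0.82), Icam2 (0.809), an adhesion molecule of endothelium, and C130094E24 (0.793). Closest to Car6 were Slc25a34 (0.937), a mitochondrial carrier, Rab3d (0.913), a GTPase of secretory granules, and Elovl6 (0.909), which lengthens fatty acids, although further clones of Rab3d and Elovl6 had r = -0.055 and 0.148, as a further clone of C130094E24 had 0.256 with Car4. Closest to Car12 were Kcnn4 (0.948), a potassium channel, Egln3 (0.946), an oxygen-sensing prolyl hydroxylase, and Spag5 (0.932), a spindle protein. Within the 23 Wnt-1-induced tumors the r with Car12 was 0.165 for Kcnn4, 0.238 for Egln3 and 0.845 for Spag5, and within the 12 Neu-induced tumors it was 0.604, -0.287 and -0.336.

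Car2, the fast cytosolic enzyme, was lower in tumors of MMTV-Wnt-1 than of MMTV-Neu mice. It ran from -5.28 to -3.28 around a median of -4.37 in Wnt-1-induced tumors and from -3.34 to -1.18 around -2.16 in Neu-induced tumors. Of the Wnt-1-induced tumors 22 of 23 lay below every Neu-induced tumor. The geometric mean was 4.47-fold lower (log2 difference -2.16 with a 95% interval of -2.61 to -1.71, limma adjusted p = 3.4e-10). Car2 fell at both steps of the Wnt-1 series. Virgin glands read -2.84, -1.58, -1.52, -2.01 and -2.81 and hyperplastic glands ran from -3.81 to -2.74 around -3.53, with 6 of 7 below all virgin glands and a 2.31-fold lower mean (limma adjusted p = 0.00466). From hyperplastic glands to Wnt-1-induced tumors it fell a further 2.04-fold (limma adjusted p = 0.00021), although after quantile normalization this step was -0.26 and lost the call (adjusted p = 0.592). Neu-induced tumors overlapped the virgin glands, with a log2 difference of -0.08 and a 95% interval of -0.87 to 0.71, which was 0.77 after quantile normalization. Fat read -4.44, -2.64 and -3.71, with 2 of 3 below all virgin glands, and was not called (adjusted p = 0.104). In a fit over all groups it was called (adjusted p = 0.00816).

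Car8, the member without catalytic activity, was higher in every Neu-induced tumor than in any Wnt-1-induced tumor. Here, as for Car6 and Car12, the share of all clones that separate the tumor types in this way is not given. By limma 43.6% of all clones were called between them. Neu-induced tumors ran from 0.64 to 2.22 around a median of 1.29, and Wnt-1-induced tumors from -2.0 to 0.52 around -0.05. All 12 lay above all 23, with a 2.96-fold higher mean (log2 difference of Wnt-1-induced minus Neu-induced tumors -1.57, 95% interval -1.91 to -1.23, limma adjusted p = 9.73e-10). Without the widely spread arrays this difference was -1.46. Virgin glands read -0.28, -0.01, -0.13, -0.12 and -0.40, below every Neu-induced tumor, which were 2.89-fold higher in the mean (limma adjusted p = 4.01e-06). Wnt-1-induced tumors lay on both sides of the virgin glands, at a log2 difference of -0.04 with a 95% interval of -0.49 to 0.42. Hyperplastic glands ran from -0.99 to -0.10 around -0.47 and overlapped both. Their difference from the Wnt-1-induced tumors was called only under 2 of the alternatives, without the widely spread arrays (0.43, adjusted p = 0.0112) and after quantile normalization (0.48, adjusted p = 0.0177). Fat read -1.50, -1.36 and -0.19. The last value is that of fat 44, without which fat was called lower than virgin glands (log2 difference -1.24, limma adjusted p = 0.00214).

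Car13, a cytosolic enzyme, was highest in virgin glands. They read 0.82, 1.80, 1.81, 1.46 and 0.68, and hyperplastic glands ran from -1.11 to 0.24 around -0.47, all below the virgin glands and 3.22-fold lower in the mean (log2 difference -1.68, 95% interval -2.24 to -1.13, limma adjusted p = 0.000566). Wnt-1-induced tumors, from -2.56 to 1.09 around -1.23, were a further 1.9-fold lower (limma adjusted p = 0.00772), although by permutation of the clone alone the P of 0.0036 missed the threshold of 0.001. The highest of them, tumor 25, was the only one above every hyperplastic gland. Neu-induced tumors ran from -2.53 to -0.42 around -0.77, all below the virgin glands and 4.84-fold lower in the mean (limma adjusted p = 2.86e-06). The tumor types overlapped (log2 difference -0.34, 95% interval -0.81 to 0.14, adjusted p = 0.257). Fat read 0.84, 0.44 and 0.28, which was 3.26-fold higher than the tumors of both types together (limma adjusted p = 0.000414). In the RefSeq gene order of the mouse, Car13, Car1, Car3 and Car2 follow each other on chromosome 3. The mean of each was lower in Wnt-1-induced tumors than in virgin glands, with Car3 not tested and the call of Car1 resting on every virgin gland, as given next. This was not particular to these genes. The means of Car4, Car6 and Car8 were also lower there (log2 differences -2.52, -0.42 and -0.04), with Car4 and Car6 not tested and Car8 not called. That of Car12 was higher, and 25.1% of all clones were called lower.

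Car1, a cytosolic enzyme abundant in red cells, was low against the reference in every group. Virgin glands read -3.01, -2.22, -2.18, -2.54 and -2.81. Neu-induced tumors ran from -5.03 to -3.68 around -4.19, all below the virgin glands and 3.26-fold lower in the mean (log2 difference -1.70, 95% interval -2.10 to -1.31, limma adjusted p = 4.82e-07). Wnt-1-induced tumors ran from -9.38 to -2.57 around -3.85, with 21 of 23 below all virgin glands and a 2.79-fold lower mean (limma adjusted p = 0.0402). This call was lost when any of the 5 virgin glands was left out (adjusted p from 0.0507 to 0.0926). It was kept without the widely spread arrays, tumor 42 at -9.38 among them, where the log2 difference moved from -1.48 to -1.18 (adjusted p = 0.00167). It was lost after quantile normalization (-0.52, adjusted p = 0.0876) and by permutation of the clone alone (P = 0.0364 against a threshold of 0.001). Fat read -3.67, -3.50 and -3.42, all below the virgin glands (limma adjusted p = 0.0344), a call lost without any of virgin glands 27, 28 and 29 or without fat 45 or 46. The 6 measured red cell genes averaged -1.83 in virgin glands, -2.49 in Wnt-1-induced tumors and -2.67 in Neu-induced tumors. Against virgin glands 2 of them were called lower and none higher in Wnt-1-induced tumors, where 26.5% of all genes were called lower and 26% higher. In Neu-induced tumors 4 were called lower and 1 higher, where 28.8% of all genes were called lower and 26.8% higher. Across the 23 Wnt-1-induced tumors Car1 had an r of 0.66 with the red cell list. With other lists r was higher, at 0.915 for lung, 0.91 for endothelial, 0.735 for secretory and 0.71 for adipocyte genes. Across the 12 Neu-induced tumors r was 0.17 for red cell, 0.55 for endothelial, 0.43 for lung, 0.35 for secretory and -0.30 for adipocyte genes. The part of blood or of other cells in the level of Car1 was not tested.

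**Figure D3:**
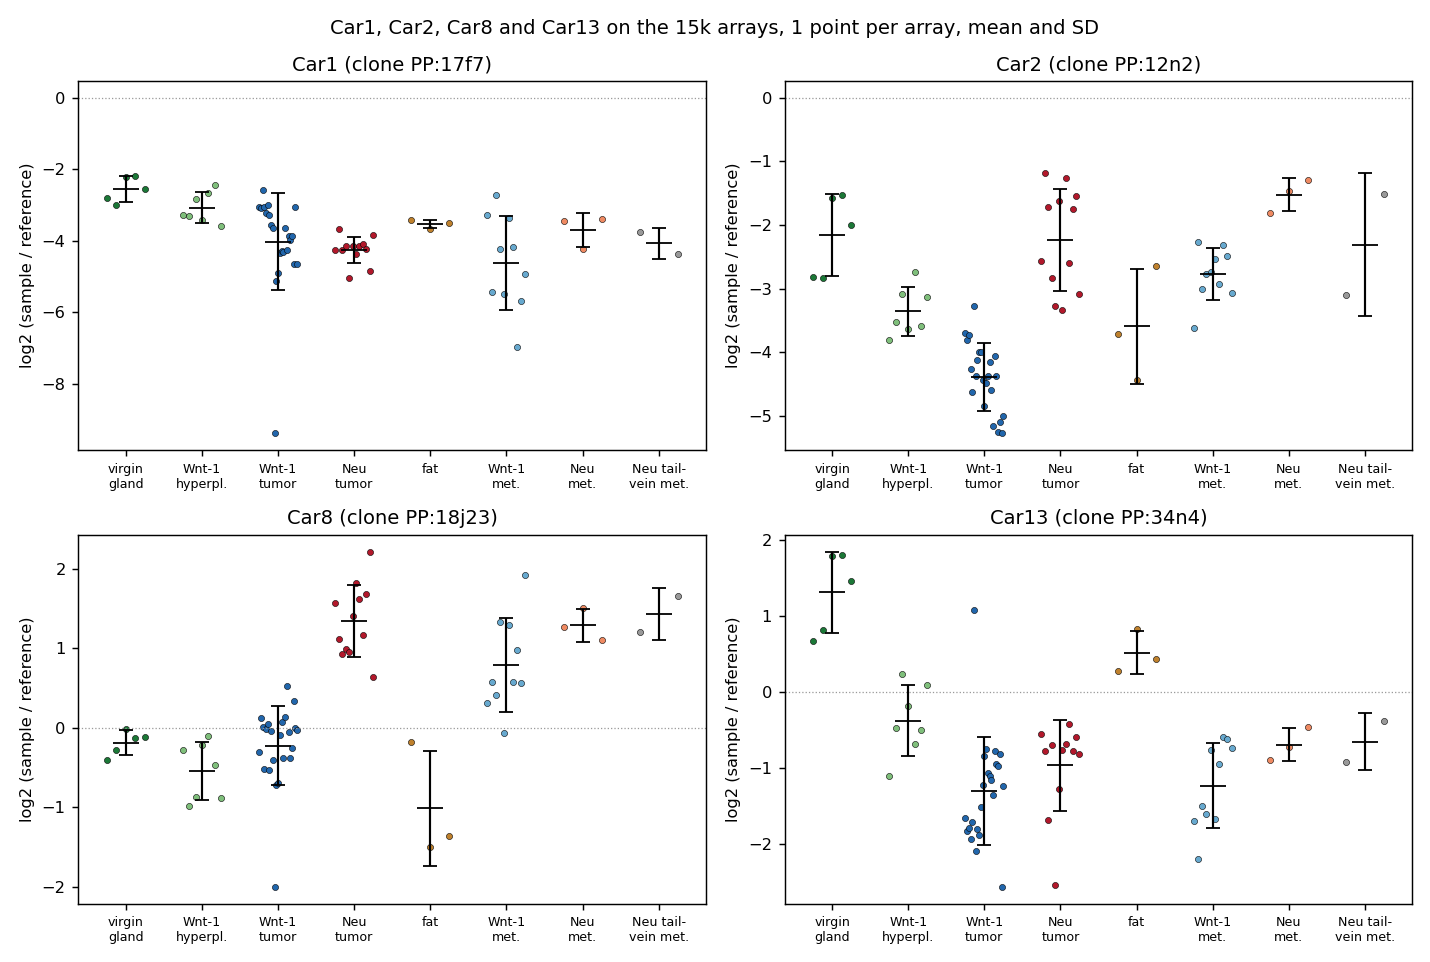
Log2 ratio of sample to reference (vertical axis) of Car1, Car2, Car8 and Car13 on the 15k arrays, 1 point per array, with the mean and SD of each group (horizontal axis; met. stands for lung metastasis, hyperpl. for hyperplasia). Car2 is lowest in Wnt-1-induced tumors, Car8 is above 0.6 in all Neu-induced tumors, Car13 is above 0.6 in all virgin glands, and Car1 has a single Wnt-1-induced tumor at -9.38.

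The calls of the 4 tested clones stood among many. Between the tumor types 2 of 4 were called, Car2 and Car8, both lower in Wnt-1-induced tumors, where 43.6% of all clones were called, 21.7% higher and 21.9% lower. From virgin to hyperplastic glands 2 of 4 were called, Car2 and Car13, both lower, where 21.9% of all clones were called, 8.93% higher and 13% lower. From hyperplastic glands to Wnt-1-induced tumors Car2 and Car13 were again called lower, where 41.7% were called, 20.1% higher and 21.7% lower. Against virgin glands 3 of 4 were called in Wnt-1-induced tumors, all lower, where 49.4% of all clones were called, 24.3% higher and 25.1% lower. In Neu-induced tumors 3 of 4 were called, 1 higher and 2 lower, where 52.2% were, 24.9% higher and 27.3% lower. Fat gave 1 of 4 lower against virgin glands, where 9.09% of all clones were called, 5.31% higher and 3.78% lower. Against tumors of both types it gave 1 higher (Car13) and 1 lower (Car8), where 53.3% were called, 21.8% higher and 31.6% lower, and Car8 lost its call without fat 45 or 46 (adjusted p = 0.153 and 0.129). These comparisons share arrays and are not independent of each other.

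**Figure D4:**
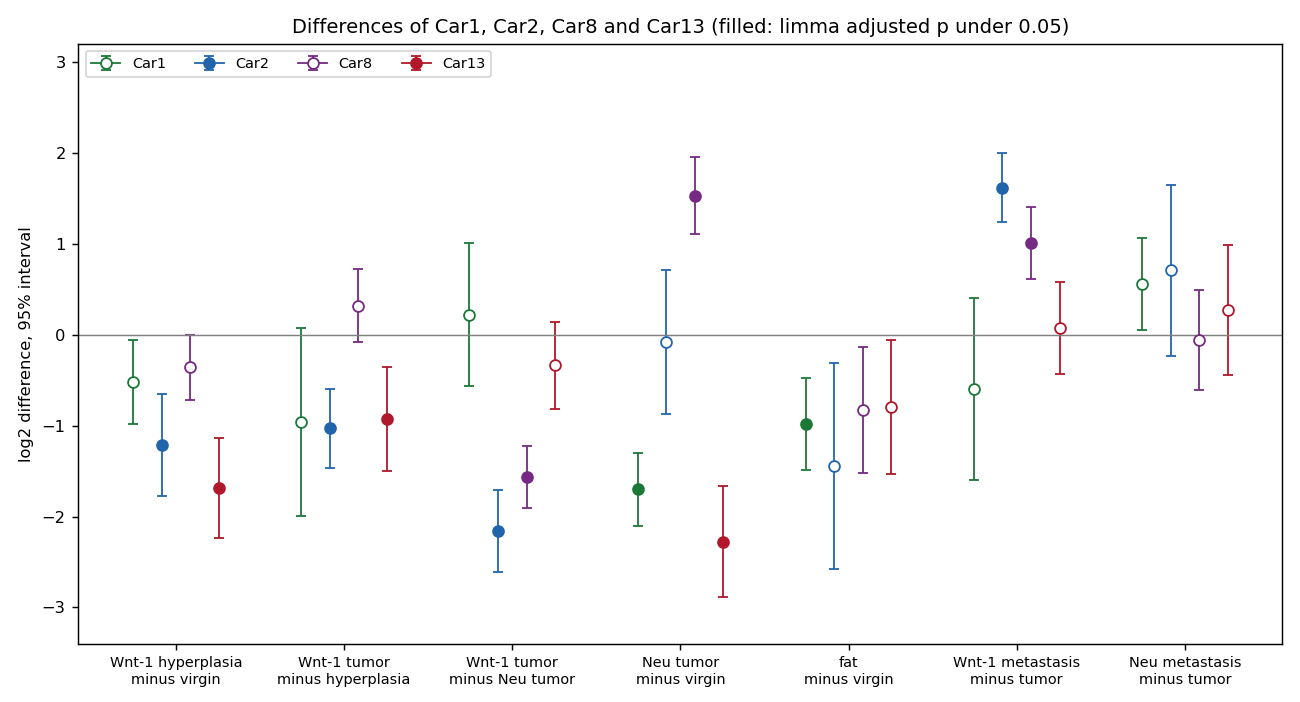
Log2 differences of Car1, Car2, Car8 and Car13 between groups of 15k arrays (vertical axis, with 95% intervals from limma) in 7 comparisons (horizontal axis). Filled points passed an adjusted p under 0.05. Car2 lies at -2.16 and Car8 at -1.57 for Wnt-1-induced minus Neu-induced tumors, and both lie above 0 for Wnt-1 metastases minus tumors.

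A list of 55 genes that move bicarbonate, acid, lactate or water across membranes was set beside the family, of which 18 were on the 15k arrays after clones of a gene were averaged. Between the tumor types 3 were higher and 8 lower in Wnt-1-induced tumors, against 22.8% higher and 23% lower of all 7766 genes, and the median log2 difference of the list was -0.19 where that of all genes was -0.03. The smallest adjusted p-values belonged to Atp6ap2 (-0.69) and Atp6v0e (-0.58), of the vacuolar proton pump, and to the water channel Aqp5 (-1.32). From virgin to hyperplastic glands 4 were lower and none higher (14.3% and 9.58% of all genes), led by the pump subunit Atp6v0a1 (-0.91), the water channel Aqp1 (-1.41) and Atp6ap1 (-0.64), an accessory protein of the pump. From hyperplastic glands to Wnt-1-induced tumors 6 were higher and 3 lower (21.9% and 22.2%). Slc4a2, an exchanger of chloride for bicarbonate, rose by 0.95, Slc9a3r1, a scaffold of sodium-proton exchangers, rose by 0.94, and the anion exchanger Slc26a6 fell by 0.66. Against virgin glands 3 were higher and 4 lower in Wnt-1-induced tumors (26% and 26.5% of all genes), and 7 higher and 4 lower in Neu-induced tumors (26.8% and 28.8%). Slc4a2 was higher by 0.66 and 1.08 and Slc26a6 lower by log2 differences of -1.01 and -1.29 in these 2 comparisons. Fat against virgin glands gave 2 higher and none lower (4.3% and 3.19%), Atp6v0a1 (1.06) and Atp6v1a (0.88). Against tumors of both types 6 were higher and 5 lower in fat (21.2% and 33%).

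Car2 and Car8 were higher in Wnt-1 lung metastases than in Wnt-1-induced tumors. Car2 read -3.63, -2.27, -3.01, -2.77, -2.74, -2.53, -2.93, -2.31, -2.49 and -3.07 in the 10 Wnt-1 metastases, of which 9 lay above all 23 Wnt-1-induced tumors. The mean was 3.07-fold higher (log2 difference 1.62, 95% interval 1.24 to 2.0, limma adjusted p = 2.4e-07), where 4.62% of all clones were called, 2.47% higher and 2.15% lower. Car8 ran from -0.06 to 1.92 around a median of 0.58 in these metastases, with 7 of 10 above every tumor and a 2.02-fold higher mean (log2 difference 1.01, 95% interval 0.62 to 1.41, limma adjusted p = 0.000872). Both calls were kept without the widely spread arrays (1.43 and 0.94). Car1 and Car13 were not called, with log2 differences of -0.60 (95% interval -1.60 to 0.41) and 0.07 (95% interval -0.43 to 0.58), and that of Car1 was 0.12 after quantile normalization. The 9 measured genes of the lung epithelium list averaged from -0.55 to 1.39 in the Wnt-1 metastases and from -3.74 to -1.86 in the Wnt-1-induced tumors, and 6 of them were called higher. Of 18 endothelial genes 8 were called higher and none lower, where 2.88% of all genes were called higher and 2.58% lower. Across the 10 metastases the lung list had a Pearson r of 0.75 with Car2 (Spearman rho 0.76, r = 0.71 without the 2 farthest) and of -0.03 with Car8 (rho 0.21). With Car2 the endothelial list had an r of 0.72 (rho 0.66, r = 0.45 without the 2 farthest). The red cell list had an r of -0.785 with Car2 (rho -0.62, r = -0.89 without the 2 farthest). The part of lung tissue in these differences was not tested. Of the transport list 3 were higher and none lower, Slc9a3r2 (0.45), Aqp1 (0.62) and the bicarbonate transporter Slc4a5 (1.83).

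In the 3 Neu metastases none of the 4 tested members was called by limma against Neu-induced tumors, and 1 of 4, Car1, had an unadjusted p under 0.05. Only 0.195% of all clones were called in this comparison. Car2 read -1.81, -1.47 and -1.29 in them, Car8 1.26, 1.5 and 1.10, Car1 -3.45, -4.24 and -3.39, and Car13 -0.89, -0.72 and -0.46, and the Car1 values of 2 of the 3 lay above all 12 tumors. The log2 differences were 0.71 for Car2 (95% interval -0.23 to 1.65) and -0.05 for Car8 (95% interval -0.60 to 0.50). Whether the step from tumor to metastasis differed between the models was tested in one fit over all 15k groups. No tested member passed, with 1.07 for Car8 (95% interval 0.36 to 1.77, limma adjusted p = 0.418) and 0.91 for Car2 (95% interval 0.02 to 1.79, adjusted p = 0.779), where 0.0651% of all clones passed. Between the kinds of metastasis 1 of 4 was called, Car2, 2.38-fold lower in Wnt-1 metastases (limma adjusted p = 0.00376), where 15.2% of all clones were called (7.13% higher and 8.07% lower), and not after quantile normalization (adjusted p = 0.278). All 10 Wnt-1 metastases lay below all 3 Neu metastases for Car2. Of the transport list none was called between Neu metastases and tumors (0.155% of all genes higher and none lower), and 4 were lower and none higher in Wnt-1 than in Neu metastases (9.07% and 7.53%), Aqp5 by -1.78 among them.

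On the 8.7k arrays all 6 members were tested between Wnt-1-induced tumors of p53-/- mice and other Wnt-1-induced tumors. None was called by limma, nor by permutation of each clone alone at P under 0.001, where 0.442% of all 8832 clones were called by limma. At an unadjusted p under 0.05 there were 2, Car8 and Car12. Car12 read 3.18, 0.12, 1.41, 1.3, 1.65 and 1.11 in the 6 p53-/- tumors, and ran from -0.99 to 1.34 around a median of -0.13 in the other 10. The mean was 2.56-fold higher (log2 difference 1.35, 95% interval 0.55 to 2.16, limma adjusted p = 0.102), with 3 of 6 above all others. Car8 read -0.88, -1.43, -0.10, -0.40, -0.55 and 0.00 against a range of -0.52 to 0.65, a log2 difference of -0.48 (95% interval -0.94 to -0.02, adjusted p = 0.313). Car2 was scattered in the p53-/- tumors, from -5.34 to -1.10, with an SD of 1.58 against 0.69, and a log2 difference of 0.17 (95% interval -0.90 to 1.25). The differences of Car1, Car4 and Car6 were -0.44, -0.14 and 0.57, each with a 95% interval that includes 0. Of the 12 transport genes on these arrays none was called, where 0.507% of all genes were.

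**Figure D5:**
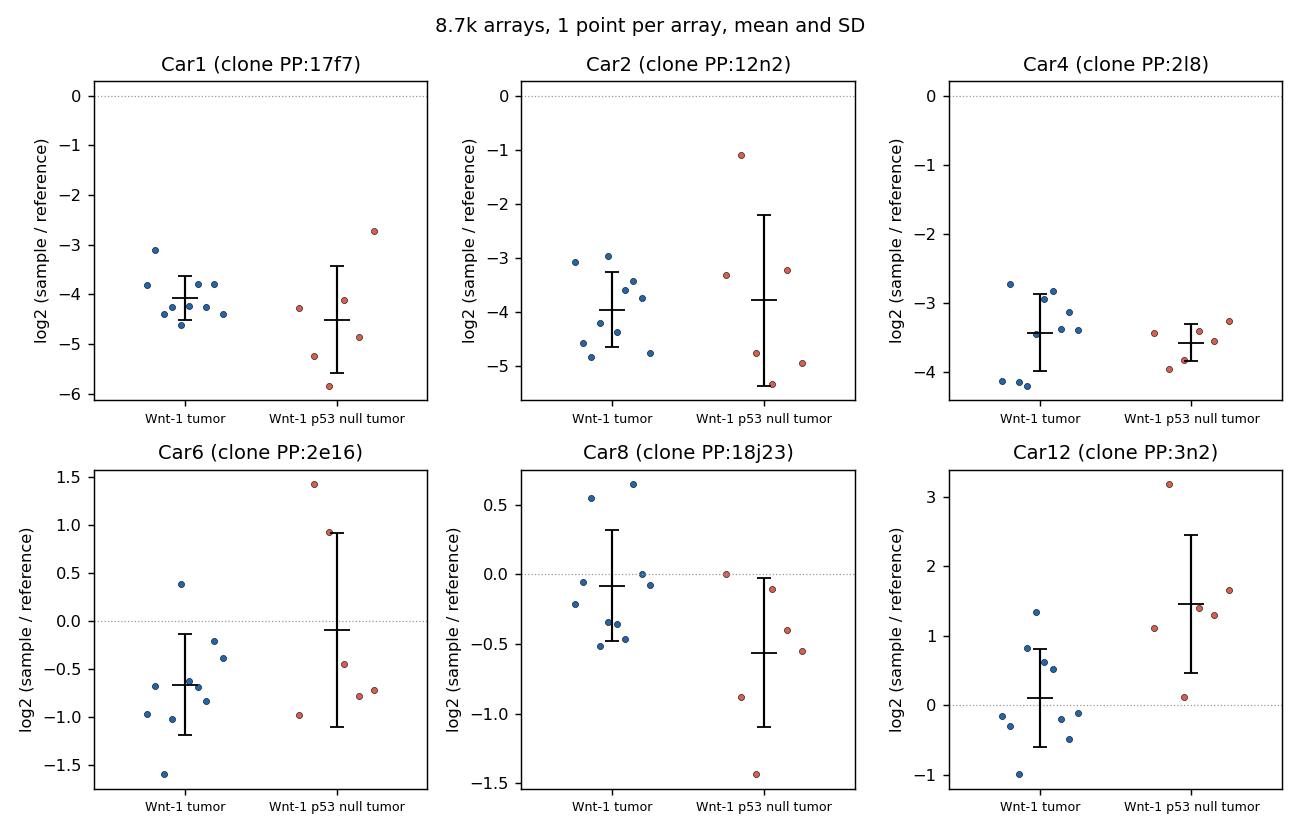
Log2 ratio of sample to reference (vertical axis) of 6 carbonic anhydrase clones on the 8.7k arrays in 10 Wnt-1-induced tumors and 6 Wnt-1-induced tumors of p53-/- mice, 1 point per array, with the mean and SD of each group. Car12 is higher in most of the p53-/- tumors, with 3 of 6 above all others, but was not called. Car1 and Car8 each have 3 of 6 p53-/- tumors below all others, and Car1 also has 1 above. The ranges of the groups overlap for every clone.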

How the data were processed

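The authors scanned 2-color cDNA arrays, scored spot quality, normalized each array and left out genes of mean quality under 0.5. The deposited values are their normalized log2 ratios of Cy5-labeled sample to Cy3-labeled reference. Quality scores were not analysed here and no clone was dropped on them. The median log2 ratio of an array lay between -0.144 and 0.0431 (15k) and between -0.0641 and 0.018 (8.7k). Precision is limited by how many arrays a group has.

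Clones were named from the platform tables, and array type was taken from the table that holds a sample. The members and lists were chosen with earlier results of these data known. Groups were compared over all clones with lmFit and eBayes of limma 3.58.1 under R 4.3.3, using clones measured on 50% or more of the arrays, and on 2 or more, of both sides, at a Benjamini-Hochberg adjusted p under 0.05. Each fit held the arrays of its 2 sides alone. Folds are ratios of geometric means. Clones were averaged per gene for the 10 gene lists, of adipocytes, skeletal muscle, lung epithelium, endothelium, secretory, luminal and myoepithelial cells, red cells, the hypoxia response and acid and bicarbonate transport. The luminal list (8 measured) had 4 higher and 3 lower, and the myoepithelial list (6 measured) 5 higher and none lower, in Wnt-1-induced against Neu-induced tumors. Of all genes 22.8% were called higher and 23% lower there. The text names every member, the 3 genes most like each of Car3, Car4, Car6 and Car12, up to 3 called transport genes of smallest adjusted p in the comparisons it describes, and single marker genes. The fits were tested on simulated data. A further 8.7k group entered no comparison, and the methods' permutation test was run for the members alone.

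The alternatives were centring of arrays, quantile normalization, no filter on missing values, all groups in 1 fit, trend and robust eBayes, clones averaged per gene, and 10000 permutations per clone at P under 0.001. Others were ratios under 0.01 or over 100 set missing, arrays of SD over 1.3 left out, single arrays of small groups left out, tail-vein metastases added, and blocks by title number.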

Additional observations from a re-analysis of the deposited data

Results flagged for a closer look

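Of 39 groups of 4 to 10 arrays tested over all members, 1 held an array that stood apart by Dixon's test at the 95% level. About 1 group in 20 is marked by chance. The array was Wnt-1 metastasis 50, where Car6 had a log2 ratio of -7.73 while the other 9 Wnt-1 metastases ran from -3.06 to -0.32. The log2 ratios of this array had an SD of 1.47 against a median of 0.936 over the 15k arrays, and Car1 was also lowest on it among the Wnt-1 metastases, at -6.97. Without all arrays of SD over 1.3 the log2 difference of Car6 between Wnt-1 metastases and Wnt-1-induced tumors went from -1.26 to -0.43.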

How the results depend on the processing

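Counts of tested members called moved as follows. From hyperplastic glands to Wnt-1-induced tumors, 2 became 4 without arrays of SD over 1.3 (Car1 and Car8 added) and 1 by permutation per clone (Car13 lost). Fat against virgin glands gave 0 after quantile normalization or with trend and robust eBayes, 2 without arrays of SD over 1.3, and from 0 to 2 when single fat or virgin gland arrays were left out (2 without fat 44). Fat against tumors of both types gave 1 by permutation, and from 1 to 2 without single fat arrays. Wnt-1 against Neu metastases gave 0 after quantile normalization. All other counts stayed within 1.5 times, except as stated for title numbers.

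Reversed signs were of uncalled differences, apart from Car1 in fat minus virgin glands, 0.67 after quantile normalization. The same setting gave 0.24 for Car2 in fat minus virgin glands, 0.77 for Car2 and 0.071 for Car8 in Neu-induced and Wnt-1-induced tumors minus virgin glands, 0.12 and 0.25 for Car1 in Wnt-1 metastases minus Wnt-1-induced tumors and minus Neu metastases, 0.068 for Car8 in Neu metastases minus tumors, and 0.030 and 0.23 for Car1 and Car4 in p53-/- tumors. Car8 in Wnt-1-induced tumors minus virgin glands was 0.016 after centring and 0.069 without arrays of SD over 1.3, and ran from -0.091 to 0.0067 without single virgin glands. Car2 in Neu-induced tumors minus virgin glands ran from -0.25 to 0.077 in that way. Car2 in fat minus tumors ran from -0.42 to 0.48 without single fat arrays. Car8 in Neu metastases minus tumors was 0.0011 with the tail-vein metastases added, and ran from -0.16 to 0.041 without single metastases. The cause was not tested.

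Title numbers are shared by 7 Wnt-1 and 3 Neu metastases and tumors. The labels do not say what they mark, and same-numbered deviations correlated at -0.06 to 0.28 and -0.01 to 0.12, so pairing was not assumed. Over the shared numbers the replicate block gave 2 and 0 calls, and the same samples without the block, added after seeing the data, gave 1 and 0. Car1 in Wnt-1 metastases was 0.47 and Car8 in Neu metastases 0.086 with and without the block.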
